A study of Mus musculus with 15 samples.

Results

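The mouse mitochondrial genome encodes 7 subunits of respiratory complex I, and the transcripts of all 7 were among the 10370 transcripts with deposited values. They were found as every transcript whose gene name in the GENCODE M21 annotation starts with mt-Nd: mt-Nd1, mt-Nd2, mt-Nd3, mt-Nd4l, mt-Nd4, mt-Nd5 and mt-Nd6. RNA came from dissected cortex of male C57BL/6 mice (C57Bl/6J in the study's methods), with an age of 12 weeks in the labels, 1 month after the last procedure. The HF-HI group (8 libraries) had received high-frequency head impact, repeated mild impacts to the head under brief anesthesia, and the Sham group (7 libraries) had been anesthetized and handled in the same way with no impact. No genotype or drug differed between the groups.

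Complex I takes electrons from NADH, passes them to ubiquinone and pumps protons across the inner mitochondrial membrane, and neurons depend on this step for much of their ATP. Its membrane arm is built around the mitochondrially encoded subunits, while the peripheral arm and the accessory subunits come from nuclear genes. Mitochondrial DNA is copied from both strands into long precursors, which are cut at the tRNAs between the genes. All complex I mRNAs but mt-Nd6 come from the heavy-strand precursor, and mt-Nd4l and mt-Nd4 stay together as a single mRNA.

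On chromosome M of GRCm38 (mm10), each of the 7 is annotated as 1 uninterrupted protein-coding stretch. The plus-strand genes are mt-Nd1 (2751 to 3707), mt-Nd2 (3914 to 4951), mt-Nd3 (9459 to 9806), mt-Nd4l (9877 to 10173), mt-Nd4 (10167 to 11544) and mt-Nd5 (11742 to 13565), and mt-Nd6 (13552 to 14070) lies on the minus strand. The first 30 bases of 3 of them, read from the GENCODE M21 transcripts with the start codon in capitals, show that mitochondrial start codons vary. mt-Nd1 is shown because the 5 ratios that differed over all libraries involve it, and mt-Nd4 and mt-Nd6 because its ratio to each of them separated the groups most; mt-Nd6 is also the member on the other strand.
mt-Nd1: GTGttctttattaatatcctaacactcctc
mt-Nd4: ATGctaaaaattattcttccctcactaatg
mt-Nd6: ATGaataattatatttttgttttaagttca
mt-Nd6 held 28.1% G and 5.97% C, against 11.6% G and 26.0% C in mt-Nd1.

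2 pairs of these genes overlap, and their reads cannot be fully told apart. The last bases of mt-Nd4l and the first of mt-Nd4 share 7 bases on the same strand (10167 to 10173), in capitals in both.
mt-Nd4l: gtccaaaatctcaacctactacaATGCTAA
mt-Nd4: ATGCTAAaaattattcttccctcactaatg
The ends of mt-Nd5 and mt-Nd6 share 14 bases on opposite strands (13552 to 13565), again in capitals.
mt-Nd5: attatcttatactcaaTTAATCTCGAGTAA
mt-Nd6: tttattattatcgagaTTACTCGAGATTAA
The libraries kept strand information, but whether the counting used it is not given in the sources used here. Without strand, reads from mt-Nd6 and from RNA antisense to it cannot be separated.

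Nuclear copies of mitochondrial DNA add a further limit to the short members. Gm10222 (chromosome 1, 24612407 to 24612700), an unprocessed pseudogene, shares 98.9% of the 31-base words of mt-Nd4l and was itself listed, with a mean of 376 normalized counts. Gm28438 shares 98.1% of those of mt-Nd3 and Gm28439 shares 62.8% of those of mt-Nd4, and neither was listed. No annotated nuclear transcript shared a 31-base word with mt-Nd1. The level of mt-Nd4l is therefore uncertain, and that of mt-Nd3 and mt-Nd4 depends on how shared reads were assigned.

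Normalized counts are reads divided by the size factor, the depth scale of each library. The Sham libraries had size factors of 0.818 to 1.47 and the HF-HI libraries of 0.501 to 1.22, and 6 Sham but only 3 HF-HI libraries lay over 1. On the log2 scale the group means of the size factor differed by -0.55, HF-HI being shallower (exact permutation p = 0.0258, two-sided), so depth and group overlapped. HF-HI replicate 2 stood apart on the first principal component of all transcripts, at 12.6 while the other libraries lay between -3.35 and 0.72. Of the cortical cell markers, Rbfox3, Snap25, Syt1, Slc17a7 and Gad1 of neurons and all 4 markers each of astrocytes, oligodendrocytes and microglia were listed.

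The 7 transcripts made up 0.615% ± 0.071 of the reads in listed transcripts in Sham (SD, n = 7) and 0.512% ± 0.115 in HF-HI (SD, n = 8). The share was 0.474% to 0.681% in single Sham libraries and 0.286% to 0.633% in single HF-HI libraries, so the groups overlapped. The lowest share, in HF-HI replicate 2, had a 95% Wilson interval of 0.282% to 0.292%, which covers counting error only. All mitochondrial transcripts together held 5.48% to 7.02% of the listed reads in Sham and 3.85% to 6.62% in HF-HI. Within the mitochondrial mRNAs, the 7 took 13.8% to 16.9% in Sham and 12.4% to 15.6% in HF-HI. In bulk cortex, fewer cells of a type and less RNA per cell cannot be told apart.

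Per kilobase of annotated length, the members spanned a wide range of levels in an order that hardly varied between libraries. mt-Nd3, a small subunit of the membrane arm, had the highest mean over all 15 libraries, with 27488 ± 4346 normalized counts per kilobase (SD, n = 15). mt-Nd1, which lines the ubiquinone channel, followed with 14147 ± 3384, and mt-Nd4, one of the antiporter-like proton-pumping subunits, with 5938 ± 1310. The other antiporter-like subunits, mt-Nd2 and mt-Nd5, had 3569 ± 833 and 2100 ± 409. mt-Nd4l had 1453 ± 374 and mt-Nd6 had 670 ± 137 normalized counts per kilobase. Each of the first 5 exceeded the next in 15 of 15 libraries, and mt-Nd4l exceeded mt-Nd6 in 14 of 15. The smallest margin among the first 5 was a ratio of 1.02 between mt-Nd5 and mt-Nd4l in a single library, and no neighbouring ranges over libraries were fully apart. The place of mt-Nd4l rests on how reads were split with Gm10222, with means of 431 normalized counts for mt-Nd4l and 376 for Gm10222. With the counts of Gm10222 added to its own, mt-Nd4l would exceed mt-Nd5 per kilobase in every library. mt-Nd4l and mt-Nd4 differed in level although they are known to share an mRNA. No correction for fragment length was made, and it weighs most on the 297 bases of mt-Nd4l and the 348 of mt-Nd3.

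**Figure D1:**
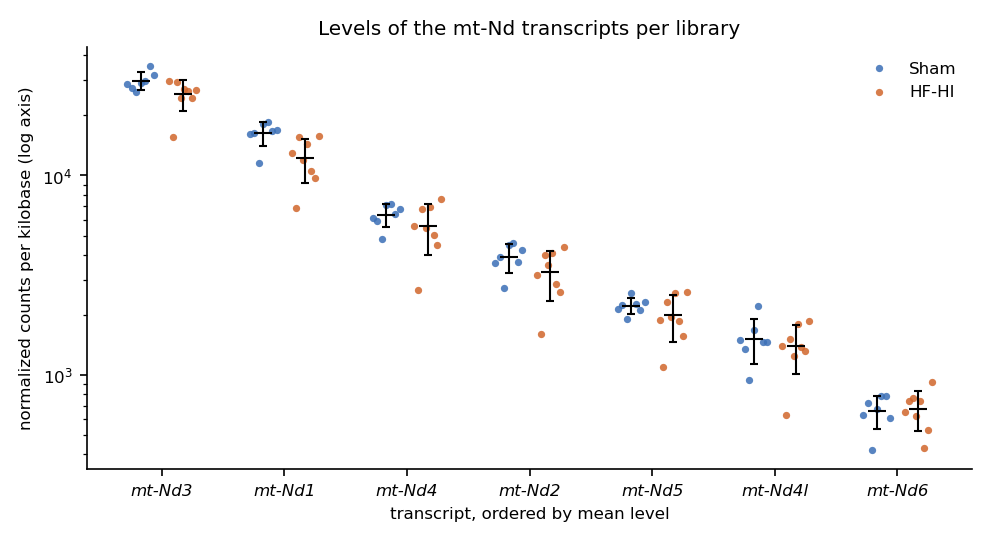
Levels of the 7 mt-Nd transcripts as normalized counts per kilobase on a log axis, with a point per library (Sham blue, n = 7, HF-HI orange, n = 8) and the mean and SD in black. The order from mt-Nd3 at 27488 to mt-Nd6 at 670 on average held in both groups, and the lowest HF-HI point of the first 6 is HF-HI replicate 2.

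The comparison of the groups addressed how cortical expression differed 1 month after head impact. On the deposited variance-stabilized (VSD) scale, a log2 scale that compresses low counts, 2 of the 7 transcripts differed at an unadjusted p under 0.05 (limma), mt-Nd1 and mt-Nd3, both lower in HF-HI. Over all transcripts 8.83% differed at that level, with 3.9% lower and 4.94% higher. None of the 7 passed a Benjamini-Hochberg adjusted p under 0.1, where the background was 0.0%. The difference was below 0 for 6 of the 7, against 51.5% of all transcripts. These 6 are the plus-strand members, which varied together across libraries (below), so they are not independent observations. The median log2 ratio of mean normalized counts was -0.18 over the 7 and -0.00 over all transcripts.

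mt-Nd1 had a lowest, median and highest value of 11069, 15963 and 17744 normalized counts in Sham and of 6615, 11903 and 15058 in HF-HI. Of the HF-HI libraries, 8 of 8 were under the median of Sham and 3 were under every Sham library. The means were 15629 ± 2186 and 11710 ± 2947 (SD, n = 7 and n = 8), a log2 ratio of -0.42. The VSD difference was -0.39 (95% interval -0.69 to -0.10), with a limma p of 0.0121 and an adjusted p of 0.433. Leaving out each library in turn kept the unadjusted p between 0.004 and 0.026.

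mt-Nd3 ran from 9087 through a median of 10122 to 12283 normalized counts in Sham, and from 5402 through 9242 to 10380 in HF-HI. 6 of the HF-HI libraries had less than the median of Sham, and 3 had less than any Sham library. The VSD difference was -0.20 (95% interval -0.41 to -0.00, unadjusted p = 0.0490 and adjusted p = 0.562 by limma). The call for mt-Nd3 lay near the threshold and was lost in 9 of the 15 fits that left out 1 library (Sham replicates 1, 4, 5, 6 and 7 and HF-HI replicates 4, 6, 7 and 8), with a highest unadjusted p of 0.106. Without HF-HI replicate 2 the difference was -0.12 and still past the threshold.

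The antiporter-like subunits had lower means in HF-HI but did not pass the test. Mean normalized counts of mt-Nd2 were 4047 ± 658 for Sham and 3405 ± 952 for HF-HI, with a VSD difference of -0.20 (limma unadjusted p = 0.133). mt-Nd4 had 8743 ± 1148 and 7691 ± 2190, with a VSD difference of -0.19 (limma unadjusted p = 0.215). mt-Nd5 had 4064 ± 379 and 3628 ± 944, with a VSD difference of -0.14 (limma unadjusted p = 0.202). For each of the 3, HF-HI replicate 2 was the lowest library, and for mt-Nd4 and mt-Nd5 HF-HI replicate 8 was the highest.

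mt-Nd4l and mt-Nd6, the least abundant members, had group means close to each other. mt-Nd4l, a small hydrophobic subunit, had 451 ± 114 normalized counts in the Sham libraries and 414 ± 113 in the HF-HI libraries (VSD difference -0.04, limma unadjusted p = 0.508). Its sum with Gm10222 was 855 ± 166 in Sham and 765 ± 209 in HF-HI. mt-Nd6 ran from 219 through 351 to 409 normalized counts in Sham and from 223 through 361 to 480 in HF-HI. Its lowest library was Sham replicate 3, and HF-HI replicate 2, the lowest for the other members, had 385. The VSD difference of mt-Nd6 was 0.01 (95% interval -0.09 to 0.11, limma unadjusted p = 0.859), and its sign changed without Sham replicate 3 (-0.02), HF-HI replicate 3 (-0.00062) or HF-HI replicate 8 (-0.01).

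Library depth moved with these values. The Pearson r between VSD and log2 size factor over the 15 libraries was 0.84 for mt-Nd1 (rho 0.89), and adjusted permutation p-values over 8 such relations were 0.0013 for r and 8e-05 for rho. For mt-Nd2, mt-Nd3, mt-Nd4l, mt-Nd4 and mt-Nd5 r lay between 0.66 and 0.74, with rho from 0.70 to 0.81 and adjusted permutation p from 0.0045 to 0.0063 for r. mt-Nd6 had the weakest relation, with an r of 0.46 and a rho of 0.48 (permutation p = 0.0808 and 0.0728). Without the 2 libraries farthest from the median depth, r was 0.94 for mt-Nd1 and between 0.44 and 0.90 for the others. Within Sham r ran from 0.54 to 0.89 over the 7 members and within HF-HI from 0.53 to 0.71. With group in the model, all 7 rose with depth at an unadjusted limma p under 0.05, against 5.81% of all transcripts. None of the 7 passed an adjusted p of 0.1. This was not particular to complex I. mt-Co1, mt-Co2, mt-Co3, mt-Atp6, mt-Cytb, mt-Rnr1 and mt-Rnr2 also rose at that unadjusted level, and mt-Atp8 did not (limma unadjusted p = 0.0550). mt-Co2 and mt-Atp6 passed the adjusted threshold (limma adjusted p = 0.081 and 0.086). The rise was 0.51 VSD a doubling of the size factor for mt-Nd1 (limma unadjusted p = 0.00069) and 0.13 for mt-Nd6 (limma unadjusted p = 0.0162). What sets this relation was not tested.

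**Figure D2:**
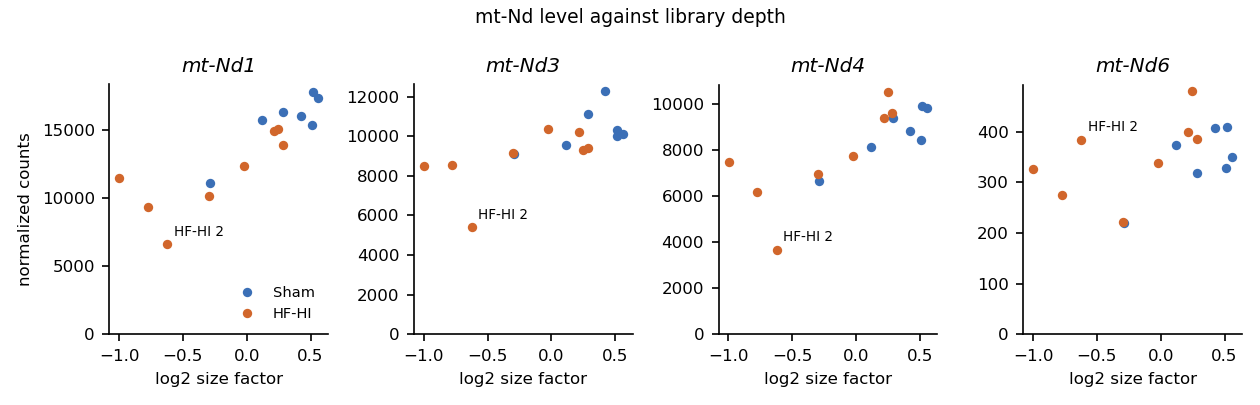
Normalized counts of mt-Nd1, mt-Nd3, mt-Nd4 and mt-Nd6 (vertical axes from 0) against log2 size factor, with a point per library (Sham blue, HF-HI orange). mt-Nd1, mt-Nd3 and mt-Nd4 are higher in deeper libraries (r on the VSD scale of 0.84, 0.66 and 0.74), and HF-HI replicate 2 lies below the other libraries for these 3 but not for mt-Nd6.

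With log2 size factor as a covariate, none of the 7 transcripts differed between groups, where 5.14% of all transcripts did. The difference of mt-Nd1 was then -0.11 (95% interval -0.36 to 0.13, limma unadjusted p = 0.349) and that of mt-Nd3 was -0.07 (limma unadjusted p = 0.529). The differences of mt-Nd2, mt-Nd4l, mt-Nd4 and mt-Nd5 changed sign, to values between 0.02 and 0.09 (limma unadjusted p from 0.197 to 0.862). That of mt-Nd6 was 0.08 (limma unadjusted p = 0.105). Among the 9 libraries with a size factor over 1 (6 Sham, 3 HF-HI), mt-Nd1 was lower in HF-HI by a VSD difference of -0.15 (limma unadjusted p = 0.0130, adjusted p = 0.940), and was the only member called, against 5.22% of all transcripts. mt-Nd1 had 15361 to 17744 normalized counts in these Sham libraries and 13843 to 15058 in these HF-HI libraries, with no overlap, as was so for 1.18% of all transcripts. For mt-Nd4 the same libraries gave 8131 to 9902 and 9391 to 10504. Depth and group cannot be fully told apart in these libraries.

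**Figure D3:**
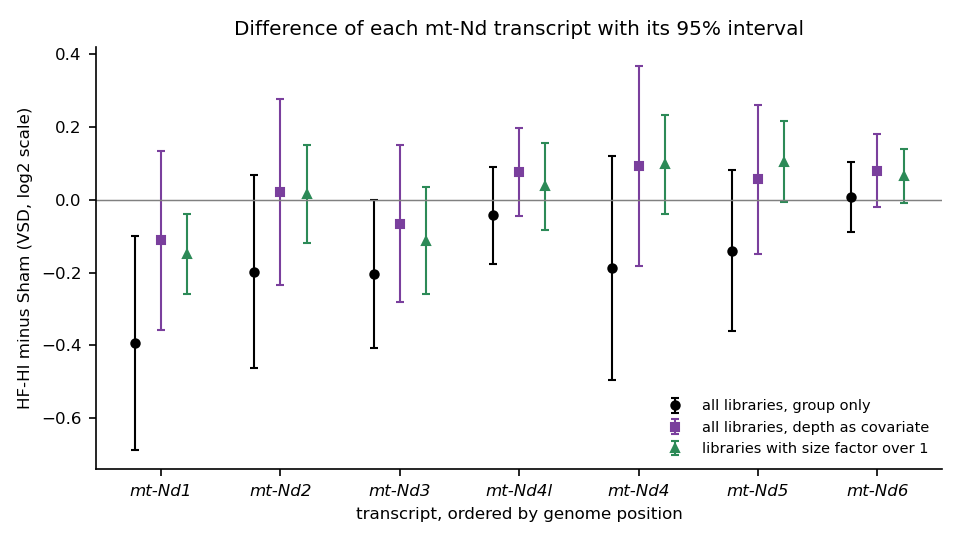
Difference of each mt-Nd transcript, HF-HI minus Sham, on the VSD scale with its 95% interval, from all libraries with group only (black), with log2 size factor as a covariate (purple) and from the 9 libraries with a size factor over 1 (green). mt-Nd1 is below 0 in all 3, and mt-Nd2, mt-Nd4l, mt-Nd4 and mt-Nd5 move from below to above 0 once depth is taken into account.

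Ratios between members within a library do not depend on the scaling of the library. Of the 21 pairs, 5 had a log2 ratio of normalized counts that differed between groups at an exact two-sided permutation p under 0.05. All 5 were ratios of mt-Nd1, and all were lower in HF-HI. How often ratios between other transcripts differ, or lie apart between the groups, was not computed. How unusual such a count is was therefore not tested. Ratios of mt-Nd1 to the other mitochondrial mRNAs were not tested either. The same 5 passed a Benjamini-Hochberg adjusted p under 0.1 over the 21 pairs, but the pairs share members and are not independent. The ratio of mt-Nd1 to mt-Nd4l missed that adjusted threshold when any of Sham 2, Sham 7, HF-HI 5, HF-HI 7 and HF-HI 8 was left out (highest adjusted permutation p = 0.117).

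The log2 ratio of mt-Nd1 over mt-Nd4 ran from 0.74 through 0.84 to 0.95 in Sham. In HF-HI it was 0.67, 0.85, 0.67, 0.61, 0.53, 0.54, 0.59 and 0.52 in replicates 1 to 8. The groups were apart except for HF-HI replicate 2, and 7 of the 8 HF-HI libraries lay below every Sham library. The means were 0.84 ± 0.07 and 0.62 ± 0.11 (SD, n = 7 and n = 8), a difference of -0.21 (exact permutation p = 0.00186, adjusted p = 0.0196).

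The log2 ratio of mt-Nd1 over mt-Nd6 was between 5.30 and 5.68 in Sham and between 4.10 and 5.51 in HF-HI. Here too 7 of the 8 HF-HI libraries lay below every Sham library, with HF-HI replicate 2 the lowest and HF-HI replicate 6 the one that overlapped. The difference was -0.47 (exact permutation p = 0.00186, adjusted p = 0.0196). Without HF-HI replicate 2 the difference was at its smallest, -0.34.

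The other ratios of mt-Nd1 had more overlap. Over mt-Nd5 the difference was -0.24 (exact permutation p = 0.00373, adjusted p = 0.0261), and each of the 8 HF-HI libraries had a ratio under the median of Sham. Over mt-Nd2 it was -0.16 (exact permutation p = 0.00870, adjusted p = 0.0457), with 6 HF-HI libraries below every Sham library. Over mt-Nd4l it was -0.30 (exact permutation p = 0.0137, adjusted p = 0.0574), subject to the shared reads of Gm10222. Over mt-Nd3 it was -0.21 and did not pass (exact permutation p = 0.0724, adjusted p = 0.231). None of the 15 ratios without mt-Nd1 passed, and the smallest p among them was 0.0771, for mt-Nd2 over mt-Nd6.

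Among the 9 libraries with a size factor over 1, the ratios of mt-Nd1 to mt-Nd2, mt-Nd4, mt-Nd5 and mt-Nd6 again differed, by -0.19, -0.28, -0.31 and -0.38, with every HF-HI library below every Sham library. A ratio without mt-Nd1 differed there too, mt-Nd2 over mt-Nd5, by -0.12. Its groups were only just apart, with -0.0376 in HF-HI replicate 3 and -0.0368 in Sham replicate 1 as the nearest values. Over all 15 libraries that ratio did not differ (exact permutation p = 0.228). Among the 9 libraries, each of these 5 ratios had an exact permutation p of 0.0238 and an adjusted p of 0.1, which does not pass. The smallest p that 6 against 3 libraries allow two-sided is 0.0238. The ratio to mt-Nd4l did not pass there (difference -0.28, exact permutation p = 0.0714). The ratio of mt-Nd1 to mt-Nd3 rose with log2 size factor (r = 0.70, rho = 0.73, adjusted permutation p = 0.021 and 0.016 over 6 ratios), also within Sham (r = 0.64) and HF-HI (r = 0.60) and without the 2 libraries farthest in depth (r = 0.76). For mt-Nd1 over mt-Nd4 r was 0.35 and rho 0.35 (permutation p = 0.198 and 0.206), with an r of 0.34 within Sham and -0.33 within HF-HI. Over both groups r was 0.49 without HF-HI replicate 2 and 0.17 without the 2 farthest libraries. For mt-Nd1 over mt-Nd6 r was 0.47 and rho 0.51 (permutation p = 0.0753 and 0.055), with an r of -0.27 within Sham and 0.26 within HF-HI. The same 2 omissions gave 0.34 and 0.53. For mt-Nd1 over mt-Nd2 r was 0.40 (permutation p = 0.144), and they gave 0.55 and -0.03. For mt-Nd1 over mt-Nd5 r was 0.57 and rho 0.58 (adjusted permutation p = 0.081 and 0.076), with an r of 0.78 within Sham and -0.04 within HF-HI.

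**Figure D4:**
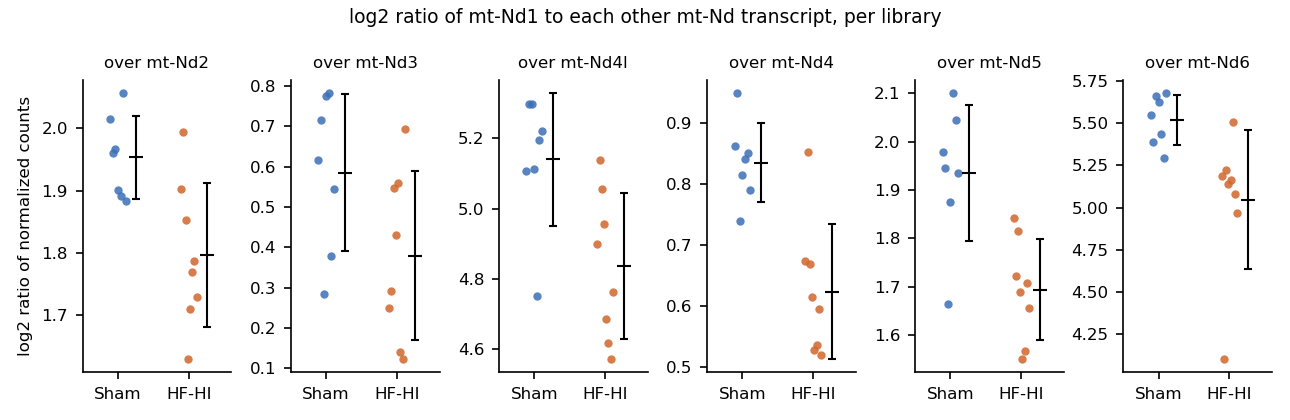
log2 ratio of normalized counts of mt-Nd1 to each of the other mt-Nd transcripts, with a point per library and the mean and SD in black beside it (each panel has its own vertical axis). Over mt-Nd4 and over mt-Nd6, 7 of the 8 HF-HI libraries lie below all 7 Sham libraries, while over mt-Nd3 the groups overlap widely.

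The 6 plus-strand members varied together across libraries, and mt-Nd6 followed them less closely. Over the 15 pairs of plus-strand members, the median Pearson r of VSD values was 0.88 (range 0.69 to 0.98) and the median Spearman rho was 0.82. The pair with the highest r and rho was mt-Nd2 with mt-Nd4 (r = 0.98, rho = 0.97, adjusted permutation p = 4.2e-05 over 21 pairs for r). The lowest r was that of mt-Nd3 with mt-Nd4l (r = 0.69, rho = 0.57, adjusted permutation p = 0.017 for r), and the lowest rho that of mt-Nd3 with mt-Nd5 (r = 0.75, rho = 0.44, adjusted permutation p = 0.011 and 0.111). The 6 pairs with mt-Nd6 had a median r of 0.40 (range 0.09 to 0.43) and a median rho of 0.56. Values of a library share its size factor.

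That contrast between mt-Nd6 and the plus-strand members was smaller without HF-HI replicate 2. mt-Nd6 is the only minus-strand member and has the lowest mean count, so strand and level cannot be told apart here. In the other 14 libraries the median r was 0.77 over the plus-strand pairs (range 0.28 to 0.96) and 0.72 over the pairs with mt-Nd6 (range 0.39 to 0.83). In that library the sum of the 7 was 19918 normalized counts, while no other library had under 30253. Within Sham, the median r was 0.84 for plus-strand pairs and 0.76 for pairs with mt-Nd6, and within HF-HI 0.95 and 0.36. After log2 size factor was regressed out, the plus-strand median was 0.78 (range 0.44 to 0.96) and the median with mt-Nd6 was 0.08 (range -0.33 to 0.16).

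**Figure D5:**
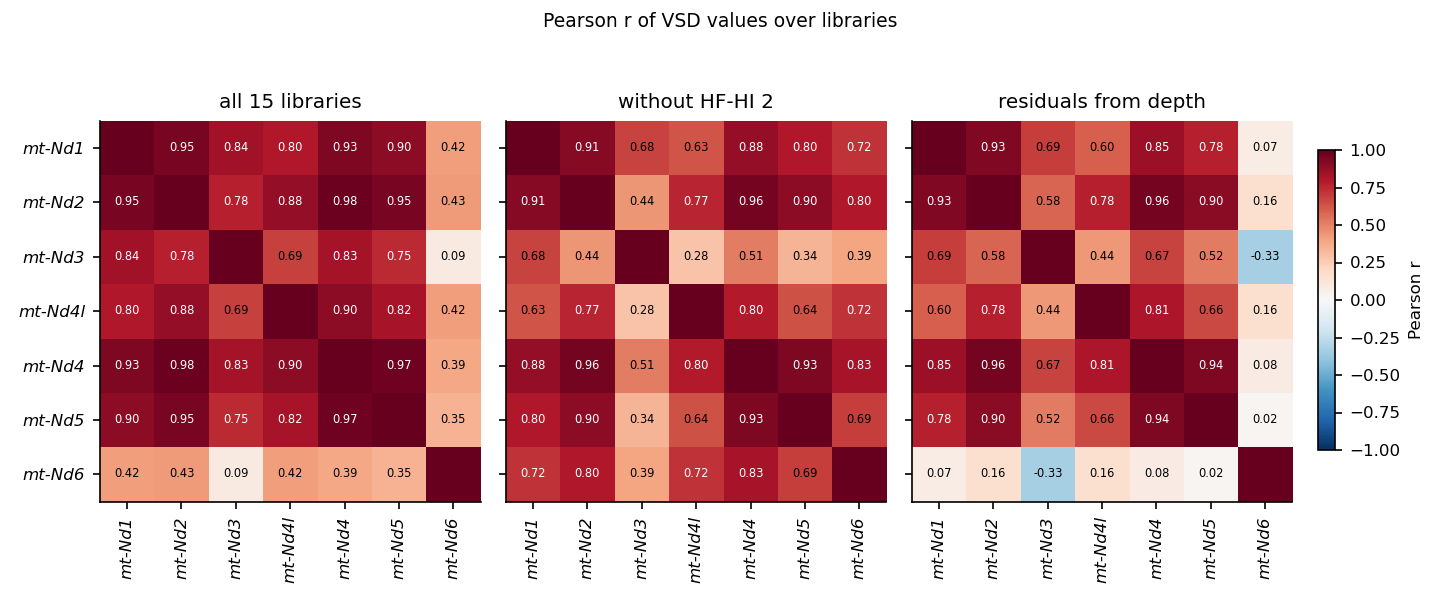
Pearson r of VSD values between the 7 mt-Nd transcripts over all 15 libraries, without HF-HI replicate 2, and between residuals from log2 size factor over all 15 libraries (color scale from -1 to 1). The pairs with mt-Nd6 have a median of 0.40, 0.72 and 0.08 in the 3 panels, and the plus-strand pairs one of 0.88, 0.77 and 0.78.

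The other transcripts of the mitochondrial genome also had lower means in HF-HI. The 6 other mRNAs, for subunits of cytochrome c oxidase (mt-Co1, mt-Co2, mt-Co3), ATP synthase (mt-Atp6, mt-Atp8) and complex III (mt-Cytb), all had a lower mean in HF-HI. Of these, 5 of 6 differed, all lower, at an unadjusted limma p under 0.05. Over all transcripts 8.83% differed at that level, with 3.9% lower. The 6 also varied with the mt-Nd transcripts over libraries, so their calls are not independent. The median log2 ratio of the 6 was -0.29. The count of 5 fell to 1 when any of Sham 1, 2, 4, 6 and 7 or of HF-HI 4, 6 and 7 was left out. It was 2 when Sham 5 was left out and 3 when HF-HI 2 was. mt-Co3 had 54289 ± 2432 normalized counts in the Sham libraries and 46375 ± 7229 in the HF-HI libraries (VSD difference -0.23, limma unadjusted p = 0.0161, adjusted p = 0.461). mt-Atp6, with the VSD difference nearest to that of mt-Nd1, had 18328 ± 2353 and 14165 ± 4479 (-0.38, limma unadjusted p = 0.0378). With log2 size factor as a covariate none of the 6 differed. The ribosomal RNAs mt-Rnr1 and mt-Rnr2, which rRNA depletion also removes, did not pass (limma unadjusted p = 0.152 and 0.193). The 6 other mRNAs also followed the mean standardized value of the 7 mt-Nd transcripts, with an r from 0.84 (mt-Co3) to 0.95 (mt-Atp6). Without HF-HI replicate 2 these values were 0.68 and 0.89. The covariation was thus not particular to the complex I transcripts. Among transcripts of nuclear genes other than Gm10222, the mean standardized value of the 7 was most like Cdc73 (r = 0.90), Ube2b (0.89), Cycs (0.89), Gm13341 (0.88) and Cox6b1 (0.87). It was least like Atp6v0d1 (r = -0.93), Tpi1 (-0.88) and Pi4k2a (-0.87), each over 15 libraries. Without HF-HI replicate 2 the first 5 had an r from 0.74 (Cox6b1) to 0.93 (Cdc73), and the last 3 from -0.87 (Atp6v0d1) to -0.79. Cycs encodes cytochrome c and Cox6b1 a subunit of cytochrome c oxidase, and Gm13341 is an unprocessed pseudogene on chromosome 2 (22587291 to 22587962). It lies near Gm13339 (22590024 to 22590533), a pseudogene that shares 13.5% of the 31-base words of mt-Nd2. Over all transcripts the median r was 0.00 and the 95th percentile 0.60. Log2 size factor correlated with the first 5 at 0.50 (Cox6b1) to 0.86 (Cdc73), and with the last 3 at -0.73 (Atp6v0d1) to -0.57 (Tpi1).

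Of 40 transcripts of nuclear complex I subunits 3 were called (7.50%), a share near the 8.83% of all transcripts. Of 10 transcripts of the 7 core genes, which carry the flavin and most iron-sulfur clusters, 0 were higher and 1 was lower at an unadjusted limma p under 0.05, with a median log2 ratio of 0.01. The lower was a transcript of Ndufv2, with 413 ± 72.6 normalized counts in the Sham libraries and 293 ± 85.6 in the HF-HI libraries (limma unadjusted p = 0.0092, adjusted p = 0.408). With depth as a covariate its unadjusted limma p was 0.194, and it was 1 of 2 listed transcripts of the gene. Of 30 transcripts of 28 accessory genes, 1 was higher and 1 lower, both of Ndufb5 (log2 ratios 0.61 and -0.27, limma unadjusted p = 0.0155 and 0.0274). With depth as a covariate the higher Ndufb5 transcript still passed (limma unadjusted p = 0.0336) and the lower did not (0.149). The lower one also lost its call when any of Sham 1, 3 and 7 or of HF-HI 4 and 7 was left out (highest unadjusted p = 0.065 by limma). Of 9 transcripts of assembly factors, none passed in limma. With depth as a covariate 1 did, Ndufaf4 (higher, limma unadjusted p = 0.0488), named after its value was seen. The summed level of the core transcripts was 4600 to 5056 normalized counts in Sham and 4604 to 5161 in HF-HI, and correlated with the mt-Nd mean at -0.58 over 15 libraries. The highest core sum was that of HF-HI replicate 2, the library with the lowest mt-Nd sum. The summed accessory transcripts correlated with the mt-Nd mean at 0.15, and neither correlation was tested.

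Genes of mitochondrial RNA metabolism, which transcribe, cut and stabilize these RNAs, were only partly listed. Of 35 such genes 12 had a listed transcript, 15 transcripts in all, and 0 differed at an unadjusted limma p under 0.05, also with voom. With depth as a covariate 1 was higher, Grsf1 (VSD difference 0.14, 95% interval 0.01 to 0.27, limma unadjusted p = 0.0414, adjusted p = 0.948), named after its value was seen. Without the covariate the Grsf1 difference was -0.02 (limma unadjusted p = 0.811), so its sign changed with the adjustment. The HF-HI mean of Grsf1, 117 ± 57.3 normalized counts, lay below the Sham mean of 128 ± 70.8. Both were close to 108, the lowest mean of any listed transcript. The product of Grsf1 binds G-rich mitochondrial RNA such as that of mt-Nd6, but a relation between their levels was not tested. Of 26 transcripts of 22 nuclear genes that mark mitochondrial mass, 3 were called (11.5%, against 8.83% of all transcripts), all lower, as were 3.9% of all transcripts. They were of Tomm40 and Tomm70a of the outer-membrane import machinery and Timm44 of the inner-membrane import motor (limma unadjusted p = 0.0207, 0.0401 and 0.0373). Their log2 ratios were -0.20, -0.11 and -0.23, and the list's median was -0.02. The Timm44 transcript is annotated as a retained intron and not as protein-coding. With depth as a covariate Tomm40, Tomm70a and Timm44 all missed the threshold (limma unadjusted p = 0.104, 0.0608 and 0.271). Another transcript passed there, of citrate synthase (Cs, lower, VSD difference -0.04, limma unadjusted p = 0.0371), named after its value was seen. The count of 3 without the covariate was 1 when any of Sham 2, HF-HI 1 and HF-HI 7 was left out. The summed level of the list was 28791 to 31638 normalized counts in Sham and 28875 to 30707 in HF-HI, so the groups overlapped.

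Summed markers of cell types and regions overlapped between the groups. Summed neuron markers (5 of 5 genes) had 34280 to 36675 normalized counts in Sham libraries and 35490 to 39228 in HF-HI libraries, and correlated with the mt-Nd mean at -0.28. Astrocyte markers (4 of 4) ranged from 36283 to 38795 and from 35464 to 40939 (r = 0.34), and oligodendrocyte markers (4 of 4) from 21373 to 24168 and from 19750 to 24877 (r = -0.30). Microglial markers (4 of 4) ranged from 1092 to 1237 and from 985 to 1225 (r = -0.03), and endothelial markers (2 of 3) from 691 to 815 and from 685 to 827 (r = 0.22). Choroid plexus markers (2 of 4) ranged from 1972 to 11212 and from 2018 to 13832, the highest value being that of HF-HI replicate 2 (r = -0.24). Striatal markers (5 of 6) ranged from 2365 to 4163 and from 2034 to 3910 (r = -0.12), and hemoglobin genes (3 of 4) from 483 to 1136 and from 541 to 1175 (r = -0.11). Over all transcripts 4.94% were higher and 3.9% lower at an unadjusted limma p under 0.05. Among single marker transcripts, 1 of 12 of neurons was higher (Snap25, limma unadjusted p = 0.0274). Lower were 1 of 8 of astrocytes (Aldoc, limma unadjusted p = 0.0024), 1 of 4 of microglia (P2ry12, limma unadjusted p = 0.0323) and 2 of 9 of striatum (Ppp1r1b and Penk, limma unadjusted p = 0.0239 and 0.0346). Their VSD differences were 0.11 for Snap25, -0.15 for Aldoc, -0.05 for P2ry12, -0.20 for Ppp1r1b and -0.13 for Penk, all named after their values were seen. In the oligodendrocyte, endothelial, choroid plexus and hemoglobin lists 0 passed in limma, and with depth as a covariate 0 passed in any marker list. Pecam1, Kl, Folr1, Drd2 and Hbb-bt were not listed, and whether any of these cells or tissues contributed to the mt-Nd values was not tested.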

How the data were processed

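Total RNA of cortex was sequenced in 7 Sham and 8 HF-HI samples. Per the methods, the authors made stranded rRNA-depleted libraries, aligned reads to mm10 with STAR, counted per Ensembl transcript with eXpress and applied DESeq2. The authors deposited variance-stabilized values on a log2 scale for 10370 transcripts. A doubling from 1000 normalized counts moves them by 0.53, and one from 10000 by 0.89.

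The transformation was inverted: 100.0% of values were whole reads within a tolerance of 0.1, which gave size factors and reads (3496103 to 10582858 a library, listed transcripts only). Symbols came from GENCODE M21 (10238 matched, 132 not). The members and gene lists were chosen with earlier results of these data known.

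Differences were tested with limma 3.58.1 in R 4.3.3 (group only, eBayes with trend, two-sided, Benjamini-Hochberg over all transcripts). Ratios used exact permutation tests, and correlations 100000 permutations. All mt-Nd and other mitochondrial transcripts were named, with at most 3 a direction at p under 0.05 from each nuclear list and the 5 most and 3 least similar nuclear transcripts. Code was checked on simulated data. The labels do not say whether libraries are from separate animals, so p-values measure the spread between these samples. No pair of libraries differed by as little as sampling noise. The alternatives changed the scale, the library scaling, the handling of depth, the weights, the filter, the block on replicate number and the libraries left out. Same-numbered Sham and HF-HI libraries did not deviate together (correlations of deviations from -0.14 to 0.09 over 7 pairs), so the number was not taken as a pairing.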

Additional observations from a re-analysis of the deposited data

Results flagged for a closer look

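Within each group of libraries, 60 sets of values (normalized counts, the share of reads and log2 ratios) were searched for a sample whose gap to its neighbour was large for the range of its group, and 10 were found. Chance alone gives about 1 in 20, and the sets share libraries.

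7 of the 10 involved HF-HI replicate 2. It had the lowest mt-Nd3 of HF-HI, 5402 normalized counts, with the others between 8509 and 10380. Its log2 ratio of mt-Nd1 over mt-Nd4 was the highest of HF-HI, 0.85, with the others between 0.52 and 0.67. Its log2 ratios over mt-Nd6 were the lowest of HF-HI, 4.10 for mt-Nd1, 2.11 for mt-Nd2, -1.04 for mt-Nd4l, 3.25 for mt-Nd4 and 2.38 for mt-Nd5.

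Sham replicate 3, the shallowest Sham library, had the lowest mt-Nd1 of Sham, 11069 normalized counts, with the others between 15361 and 17744. Sham replicate 5 had the lowest Sham log2 ratio of mt-Nd1 over mt-Nd4l, 4.75, with the others between 5.11 and 5.30. HF-HI replicate 4 had the highest HF-HI log2 ratio of mt-Nd2 over mt-Nd4, -1.02, with the others between -1.23 and -1.14. What set these libraries apart was not tested.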

How the results depend on the processing

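With log2 size factor as a covariate the VSD difference of mt-Nd1 was -0.11 and that of mt-Nd3 -0.065, neither past an unadjusted p of 0.05, and those of mt-Nd2, mt-Nd4l, mt-Nd4 and mt-Nd5 turned to 0.021, 0.077, 0.093 and 0.056. In an alternative chosen after seeing the data, without HF-HI replicate 2 as well, they were -0.090, -0.044, 0.042, 0.087, 0.12 and 0.074 in the same order. In another chosen after seeing the data, on log2 normalized counts, they were -0.13, -0.077, 0.027, 0.24, 0.11 and 0.072. Among libraries with a size factor over 1, mt-Nd3 was at -0.11 and no longer past the threshold, and mt-Nd2, mt-Nd4l, mt-Nd4 and mt-Nd5 were at 0.016, 0.037, 0.097 and 0.10. mt-Nd3 also lost its call on log2 normalized counts (-0.24), reads scaled by the library total (-0.23), voom (-0.22) and with library weights (-0.16). The difference of mt-Nd6 was 0.081 with the depth covariate and 0.076 when HF-HI replicate 2 was left out as well. It was 0.27 with the covariate on log2 normalized counts and 0.066 among libraries with a size factor over 1. None of these mt-Nd6 values passed an unadjusted limma p of 0.05. The cause of these changes was not tested.

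Of the 7 mt-Nd transcripts, 2 differed in the reported fit, 0 in each fit with depth as a covariate, and 1 on log2 normalized counts, reads scaled by the library total, voom, library weights or a size factor over 1. Over all transcripts 916 differed, 533 with the depth covariate, 592 when HF-HI replicate 2 was left out as well, 535 with it on log2 normalized counts, 541 with a size factor over 1, and 525 of the 5438 with a mean of at least 300 normalized counts, where fewer were tested. Of the other mitochondrial mRNAs 5 differed, 1 after quantile normalization or with library weights, and 0 in the depth settings. Of nuclear complex I and assembly transcripts 3 differed, and 1 with a size factor over 1 or with depth and without HF-HI replicate 2. Of mitochondrial RNA metabolism 0 differed in the reported fit (0 also at an adjusted p of 0.1 in limma) and 1 in each of the 3 fits with depth as a covariate. Of mitochondrial mass transcripts 3 differed, 1 on reads scaled by the library total, voom or the filter on the mean, and 0 with a size factor over 1. With depth as a covariate 1 differed, Cs, which is none of the 3.

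The fit with the block on replicate number rests on 7 pairs, since HF-HI replicate 8 has no Sham library of its number, and its differences equal those without that library: -0.44 for mt-Nd1 and -0.21 for mt-Nd3, both past the threshold with the block, and -0.013 for mt-Nd6. With the block 0 mitochondrial mass transcripts differed, and 891 transcripts differed in all. Same-numbered libraries share only a number.

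Leaving out each library in turn gave VSD differences from -0.46 to -0.30 for mt-Nd1, -0.26 to -0.11 for mt-Nd2, -0.23 to -0.12 for mt-Nd3, -0.08 to -0.00 for mt-Nd4l, -0.25 to -0.08 for mt-Nd4, -0.18 to -0.06 for mt-Nd5 and -0.020 to 0.033 for mt-Nd6. The counts ran from 1 to 2 of the 7, 1 to 6 of the other mitochondrial mRNAs, 2 to 5 of nuclear complex I, 0 to 0 of RNA metabolism, 1 to 4 of mitochondrial mass and 748 to 987 over all transcripts. The share of listed reads differed by -0.13 to -0.07 percentage points. From 5 to 7 ratios differed, and the 5 ratios of mt-Nd1 stayed past p of 0.05, while that to mt-Nd4l lost its adjusted call in 5 of the fits. The median r ran from 0.77 to 0.90 over plus-strand pairs and from 0.31 to 0.72 over pairs with mt-Nd6, the lowest of the former and the highest of the latter without HF-HI replicate 2. Residuals from log2 size factor gave medians of 0.78 and 0.078. On the VSD scale 7 ratios differed.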
